A study of Oryza sativa Japonica Group with 8 samples.

Results

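The loci described here were high in both inflorescence libraries of rice, flower buds and flowers, and at least 16-fold lower in every leaf, root and grain library. They numbered 191 of 41805 loci, or 0.501% of the 38124 loci of at least 300 bp. A locus was chosen when both inflorescence values were at least 20 FPKM (fragments scaled by locus length and by mapped reads), lay within 4-fold of each other, and the lower of them stood at least 16-fold above each of the other 6 libraries. Both ratios were taken on FPKM + 1, and a stretch of chromosome 9 was left out, although no locus there met the other limits. The loci were selected on their FPKM in all 8 libraries, so their levels are given as a description, with no test.

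Plants of the cultivated subspecies japonica grew in a greenhouse in Singapore, and polyadenylated RNA was sequenced in a strand-specific way. Flower buds were taken before flowering and flowers came from the day of flowering. Samples of flag leaves and of roots each came from a pre-flowering and a post-flowering point, every such sample being a mixture of stages, and milk grains and mature seeds completed the 8 groups. No treatment or genotype difference is given in the labels, each group had 1 library, and no difference below has a replicate check.

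A rice inflorescence is a panicle of florets. Each floret holds stamens with pollen-bearing anthers, a pistil and small lodicules inside the lemma and palea, the husk that later encloses the grain. Buds span anther and pistil development, and on the flowering day the floret opens and pollen is shed. Whole buds and flowers were sequenced, so a smaller number of cells of a type and less RNA per cell cannot be told apart in these values. The table pairs the loci with no gene names, and 0 of the 191 identifiers occur in the reference gene table, so no organ markers were looked up and loci are given by identifier and by position on MSU Release 7.

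Read totals are unknown, but at the shortest loci, of 101 bp, 212 of 212 values checked were whole multiples of a per-library step (within 0.03), which gives a depth for each library as a multiple of that of mature seeds, where it was lowest. Relative depth was 2.57 in buds and 2.40 in flowers, between 1.64 and 2.82 in the leaf libraries, pre-flowering roots and milk grains, and 7.68 in the post-flowering library labelled roots. That last library resembled leaves: over loci of at least 300 bp its Spearman correlation was 0.97 with the post-flowering leaves but 0.68 with the pre-flowering roots (across loci, which are not replicates). It is called root-labelled throughout. The plural, root-labelled libraries, and the root-labelled pair stand for the pre-flowering roots together with this library. The remark on leaves is about the post-flowering library alone. Leaving that library out of the 16-fold limit gave the same 191 loci.

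The 191 loci ranged from 20.5 to 4785 FPKM in flower buds, with a median of 115, and from 21.4 to 3143 FPKM in flowers, with a median of 111. The median was 1.11 FPKM in mature seeds, 0.338 in pre-flowering roots, 0.197 in post-flowering leaves, 0.184 in the post-flowering root-labelled library and 0.0570 in milk grains. In pre-flowering leaves 103 of the 191 were listed at 0, so the median there was 0. The lower inflorescence value was at least 100 FPKM for 83 loci, between 50 and 100 for 46 and between 20 and 50 for 62. As a share of all FPKM, the 191 loci held 2.64% in flower buds and 2.18% in flowers, against 0.0111% in mature seeds and at most 0.00389% in any other library.

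**Figure D1:**
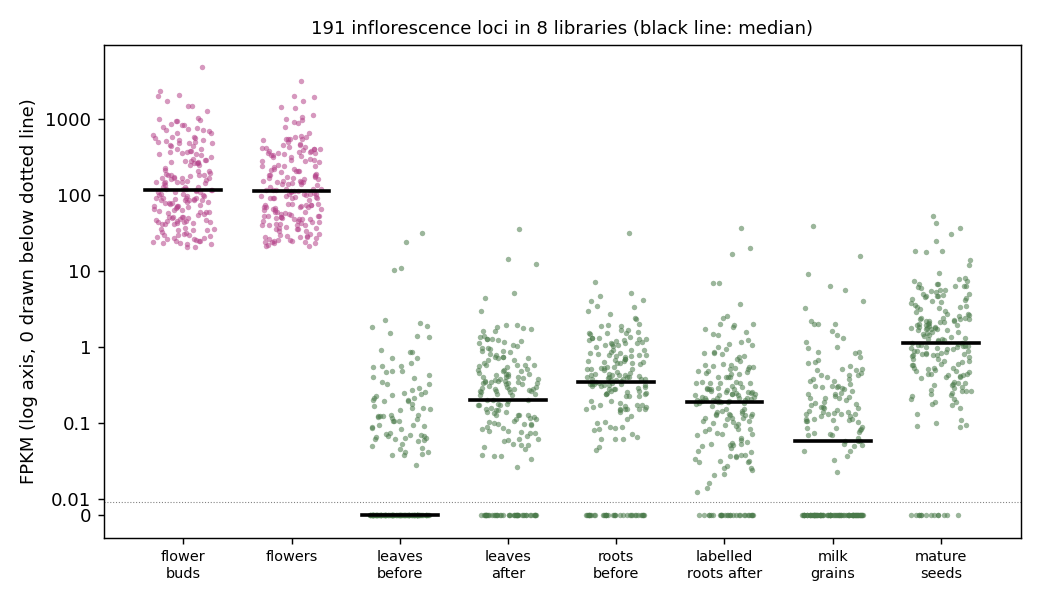
FPKM (log axis) of each of the 191 loci in the 8 libraries, 1 point per locus, with values of 0 drawn below the dotted line and the median as a black bar. Flower buds and flowers share a median near 110 FPKM (115 and 111), mature seeds stand highest among the other libraries at 1.11, and 103 points lie at 0 in pre-flowering leaves.

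The most abundant loci came first. P_XLOC_027924 on chromosome 5 (26948390 to 26949834, plus strand) stood at 1994 FPKM in buds and 3143 in flowers, against 1.84 and 5.12 in pre- and post-flowering leaves, 3.996 and 6.86 in the pre- and post-flowering root-labelled libraries, 0.673 in milk grains and 35.97 in mature seeds. P_XLOC_007048 on chromosome 10 (21465009 to 21466849, plus strand) measured 1719 and 1943 FPKM in buds and flowers, 1.40 and 2.91 in the leaf libraries in the same order, 4.13 and 3.59 in the root-labelled libraries, 0.153 in milk grains and 24.6 in mature seeds. Both were lowest in milk grains and, outside the inflorescence, highest in mature seeds.

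M_XLOC_022832 on chromosome 4 (6053639 to 6054931, minus strand) had the highest value of all members in buds, 4785 FPKM, with 1689 in flowers, 0 and 1.70 in leaves, 0.407 and 1.95 in the root-labelled libraries, 0.291 in milk grains and 51.7 in mature seeds. P_XLOC_029695 on chromosome 6 (10126748 to 10127412, plus strand) measured 1458 and 2010.2 FPKM in buds and flowers, 0.905 and 1.93 in leaves, 4.57 and 2.50 in the root-labelled libraries, 6.31 in milk grains and 30.3 in mature seeds. These 4 loci were the members above 1000 FPKM in both inflorescence libraries. The next 6 by level stood between 652 FPKM (M_XLOC_025603, chromosome 4, in flowers) and 2326.5 FPKM (the same locus, in buds).

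Low levels outside the inflorescence were not alike among these abundant loci. The member M_XLOC_024036 on chromosome 4 (19693378 to 19709974, minus strand, 16597 bp) stood at 976 and 1367 FPKM in buds and flowers, and at 31.3 and 35.4 in leaves, 31.2 and 36.9 in the root-labelled libraries, 15.5 in milk grains and 42.2 in mature seeds. It was the locus with the highest value outside the inflorescence in both leaf libraries, both root-labelled libraries and, after M_XLOC_022832, in mature seeds. The opposite-strand locus P_XLOC_023345, which overlaps it by 1732 bp, stood between 20.5 and 37.2 FPKM in all 8 libraries. By contrast M_XLOC_028405 on chromosome 5 (23883406 to 23886135, minus strand) measured 774 and 1038 FPKM in buds and flowers, between 0.480 and 1.26 in the leaf and root-labelled libraries, at 0.0850 in milk grains and at 6.58 in mature seeds. P_XLOC_001495 on chromosome 1 (15160423 to 15161640, plus strand) had a like order, with 814 and 1413 FPKM in buds and flowers, 0.122 in milk grains and 9.42 in mature seeds.

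Although chosen to lie within 4-fold, the 191 loci were far from level between buds and flowers. Of these, 50 (26.2%) were at least 2-fold lower in flowers and 33 (17.3%) at least 2-fold higher, while 108 lay within 2-fold. Among the 9034 loci of at least 300 bp that met the same limits in buds and flowers, whatever their level elsewhere, 4.95% were at least 2-fold lower and 2.87% at least 2-fold higher. The median distance between the libraries was 1.87-fold over the 191 loci and 1.20-fold over the 9034. The name of steady loci therefore holds only in the sense of the 4-fold limit, which the rule set. No test was made of this difference, since the rule used the same pair of libraries.

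The wider spread was present at high and at low levels. Of the 83 members at 100 FPKM or more, 32.5% were at least 2-fold lower and 16.9% higher in flowers, against 5.43% and 3.06% of the 1732 loci of the 9034 at that level. Among the 108 members under 100 FPKM the shares were 21.3% and 17.6%, against 4.83% and 2.82%. Among the 54 members under 1000 bp they were 35.2% and 9.26%. The 570 loci of that length among the 9034 had 11.6% and 8.07%. At that length only the share lower in flowers thus stood well above its background. The median log2 ratio of flowers over buds was -0.22 over all members, and with a 2-fold in place of the 4-fold limit it was 0.023, over 108 loci.

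**Figure D2:**
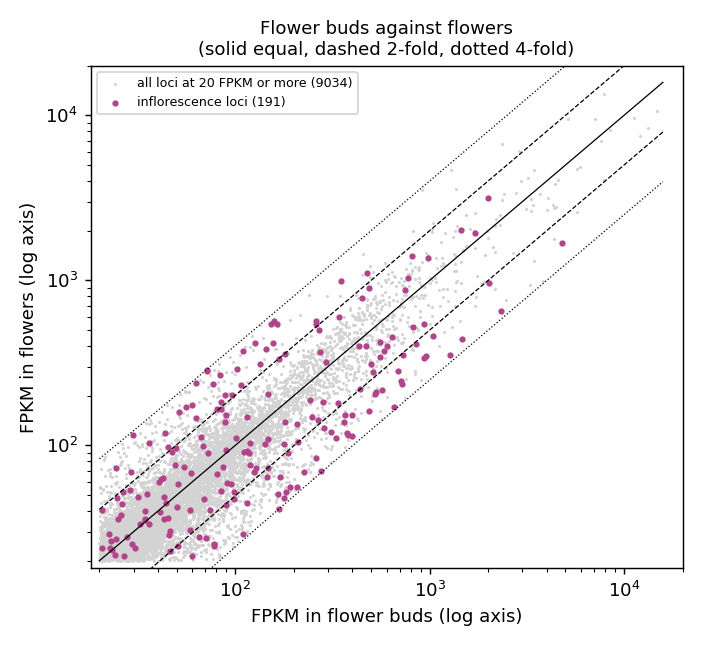
FPKM in flower buds and in flowers (both log axes) for the 191 loci (coloured) and for the 9034 loci at 20 FPKM or more in both and within 4-fold (grey), with lines at equal, 2-fold and 4-fold values on FPKM + 1. Many coloured points lie between the 2-fold and 4-fold lines, 50 on the side of buds and 33 on the side of flowers.

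**Figure D3:**
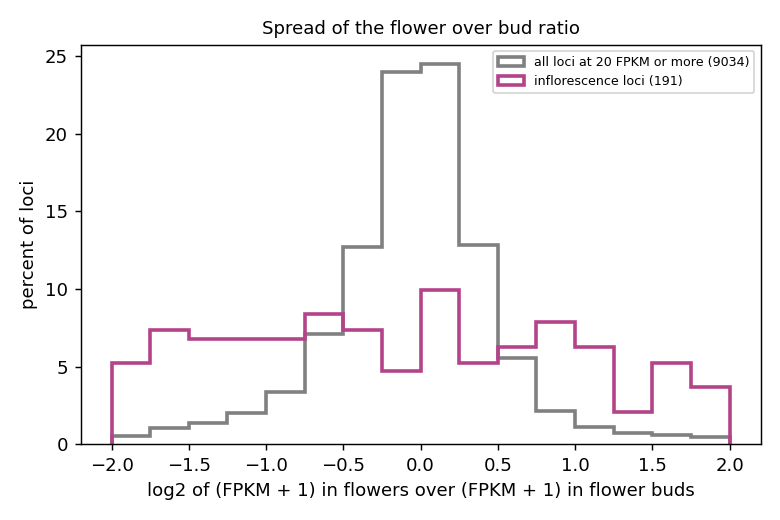
Share of loci, in percent, by log2 of (FPKM + 1) in flowers over (FPKM + 1) in flower buds, in bins of equal width, for the 191 loci and for the 9034 loci. The grey outline gathers around 0 (median distance 1.20-fold) and the coloured outline is spread over the whole permitted range (median distance 1.87-fold).

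At the upper end, M_XLOC_029583 on chromosome 6 (1397921 to 1400968, minus strand) measured 71.9 FPKM in buds and 286 in flowers, with 0.0382 and 0.192 in leaves, 0.330 and 0.306 in the root-labelled libraries, 0.261 in milk grains and 1.96 in mature seeds. P_XLOC_002675 on chromosome 1 (27742226 to 27745236, plus strand) had similar levels, 71.8 FPKM in buds and 284 in flowers, with 2.35 in mature seeds and 0 in milk grains. M_XLOC_027227 on chromosome 5 (29.6 and 115 FPKM) and P_XLOC_010800 on chromosome 12 (62.9 and 237 FPKM) followed. All 4 had mature seeds as their highest library outside the inflorescence.

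At the lower end, M_XLOC_027454 on chromosome 5 (14356080 to 14359461, minus strand) measured 168 FPKM in buds and 41.3 in flowers, with 0.125 and 0.134 in leaves, 1.06 and 0.289 in the root-labelled libraries, 0.419 in milk grains and 0.677 in mature seeds. P_XLOC_013340 on chromosome 2 was at 276 and 70.2 FPKM, P_XLOC_017655 on chromosome 3 at 655 and 171, and P_XLOC_007980 on chromosome 11 at 109 and 28.9. In these last 3 mature seeds were again the highest library outside the inflorescence.

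Level and length differed with the direction among the members, but the order of lengths was not that of the 9034 loci. The classes were cut on the ratio of flowers over buds, so the cut itself sets part of their levels in these libraries. The 50 loci lower in flowers had medians of 320 FPKM in buds, 115 in flowers and 1144.5 bp, and 19 of them were shorter than 1000 bp. The 33 loci higher in flowers had medians of 84.4 and 237 FPKM and 2092 bp, and 5 were shorter than 1000 bp. The 108 loci within 2-fold had medians of 87.5 and 83.1 FPKM and 1634 bp. Among the 9034, median lengths were 3067 bp for loci at least 2-fold lower in flowers, 2491 bp for those higher and 3887.5 bp within 2-fold. Of these, 66 of 447 lower and 46 of 259 higher loci were shorter than 1000 bp. Lower loci were thus the shorter of the 2 classes among the members and the longer among the 9034. Of the 50 lower members 21 lay in runs of neighbouring members, described below, against 3 of the 33 higher members. The 36 members in such runs had a median of 1088.5 bp. Locus length is the span on the genome, introns included, so it is no measure of transcript length.

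The 3 loci nearest to a ratio of 1 were M_XLOC_005580 on chromosome 10 (2708061 to 2708722, minus strand), at 23.1 and 23.2 FPKM in buds and flowers, P_XLOC_032980 on chromosome 7 (27.6 and 27.9 FPKM) and P_XLOC_023937 on chromosome 4 (44.1 and 45.0 FPKM). The first 2 were listed at 0 in all other libraries, and the third was at 0.207 FPKM in mature seeds and at most 0.0595 elsewhere. In all, 9 members were listed at 0 in every one of the 6 other libraries, and all 9 lay within 2-fold between buds and flowers. The highest of them was M_XLOC_018661 on chromosome 3 (4528116 to 4528700, minus strand), with 147 FPKM in buds and 110 in flowers, followed by M_XLOC_023483 on chromosome 4 with 86.3 and 73.8 FPKM. The other 7 had between 20.7 and 27.6 FPKM in buds. An exact 0 in this table can also be a failed estimate, so these are given only as listed at 0.

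Loci lay close on either side of each limit. M_XLOC_019285 (20.5 and 24.0 FPKM in buds and flowers) passed the 20 FPKM limit, and P_XLOC_008043 (21.9 and 19.9) did not. On the 4-fold limit, M_XLOC_027454 was inside at a log2 ratio of -1.997, and M_XLOC_032072 on chromosome 6, at 353 and 87.5 FPKM, was outside at -2.001. On the 16-fold limit, P_XLOC_026910 (29.2 and 68.6 FPKM, 0.829 in mature seeds) was inside and M_XLOC_033579 (28.7 and 21.3 FPKM, 0.407 in mature seeds) outside. Only 11 further loci met all limits but that of 20 FPKM, while leaving both grain libraries out of the 16-fold limit raised the number from 191 to 314.

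Outside the inflorescence, mature seeds held the highest value for 143 of the 191 loci. Pre-flowering roots were highest for 20, milk grains for 12, the post-flowering root-labelled library for 3 and each leaf library for 2, and 9 loci were listed at 0 in all 6. The rule set an upper limit on these levels, which rises with the inflorescence level, but it treated the 6 libraries alike. Mature seeds stood above milk grains at 164 of 191 loci. The milk grain library was 1.94 times as deep, and the part of depth in this order was not tested.

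A count at low levels alone draws on the same members and values, so it is no separate check of that order. Loci at 0 in both grain libraries were left out, here and in the backgrounds, which by itself raises the share of members. Among members under 5 FPKM in both grain libraries and above 0 in at least one, 138 of 151 (91.4%) were higher in mature seeds, with median FPKM of 0.981 and 0.0427. Among all loci of at least 300 bp at such levels 35.4% were higher in mature seeds, and among non-members at 20 FPKM or more in both inflorescence libraries 48.2% of 141 were. The members at 100 FPKM or more had mature seeds above milk grains at 77 of 83 loci.

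The mature seed value, like that of both post-flowering libraries, was ordered much as the flower value. It was 1.02% of the flower value in the median, with quartiles of 0.520% and 1.48%, and 127 of the 191 loci lay between 0.5% and 2%. In milk grains the median was 0.0214% of the flower value, with an upper quartile of 0.167%. Over the 177 members above 0 in mature seeds, the correlation of mature seeds with flowers was 0.86 (Spearman) and that with flower buds 0.81. The correlation with flowers was 0.80 for post-flowering leaves (147 members above 0) and 0.78 for the post-flowering root-labelled library (163), against 0.59 for pre-flowering roots (156), 0.42 for pre-flowering leaves (88) and 0.27 for milk grains (105). Points in such a plot share both libraries, and the rule's upper limit leaves no room for high seed values at low flower values, so these are descriptions.

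The seed level, as a percent of the flower or the bud value, differed between the classes of the flower over bud ratio. Loci at least 2-fold lower in flowers stood in mature seeds at a median of 1.55% of their flower value and 0.537% of their bud value. For loci at least 2-fold higher in flowers the medians were 0.654% and 1.71%, and for loci within 2-fold 0.9499% and 0.815%. The classes were cut on the ratio of the same values that the percentages divide by. They therefore cannot show which inflorescence library the seed level followed.

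A companion set was formed from loci under the same limits applied to the higher inflorescence value, but more than 4-fold apart. Among 133 such loci higher in buds, mature seeds were the highest other library for 49.6% and stood above milk grains for 62.4%. For 64 such loci higher in flowers the shares were 54.7% and 67.2%, against 74.9% and 85.9% of the 191. Measured against the higher inflorescence value, the median in mature seeds was 0.332% in the loci higher in buds, 0.693% in those higher in flowers and 0.653% in the 191. These differences were not tested.

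**Figure D4:**
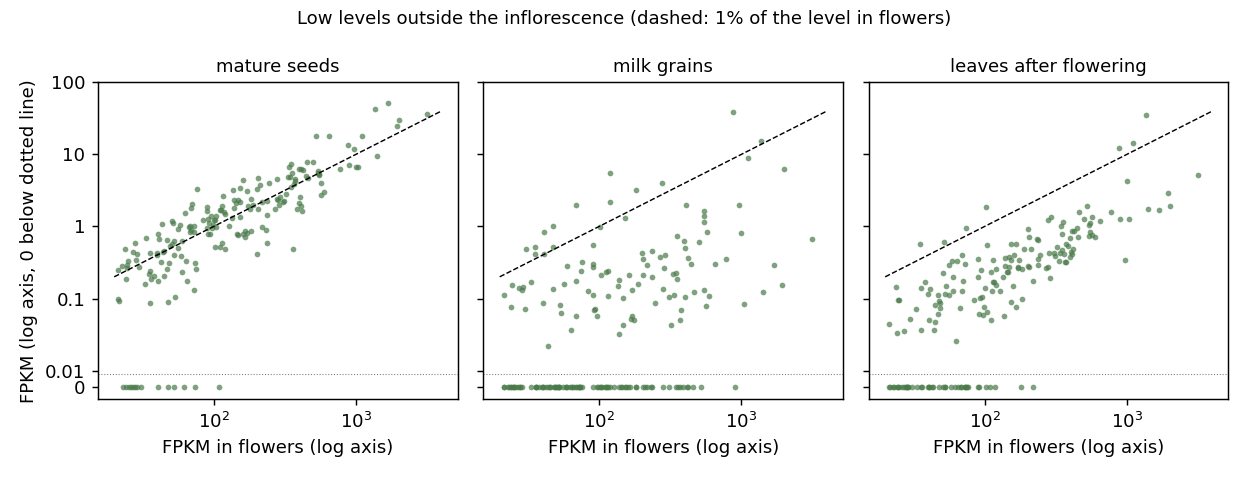
FPKM in mature seeds, milk grains and leaves after flowering (log axis, 0 below the dotted line) against FPKM in flowers (log axis) for the 191 loci, with a dashed line at 1% of the flower value. Mature seed points follow the dashed line (median 1.02%), milk grain points scatter mostly below it (median 0.0214%) and leaf points run parallel below it (median 0.138%).

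The 12 loci with milk grains as the highest other library were led by P_XLOC_006593 on chromosome 10 (17180757 to 17183465, plus strand). It stood at 749 and 877 FPKM in buds and flowers, 10.9 and 12.1 in leaves, 5.11 and 16.5 in the root-labelled libraries, 38.7 in milk grains and 13.7 in mature seeds. P_XLOC_034186 on chromosome 7 (21970341 to 21973436, plus strand) measured 375 and 118 FPKM in buds and flowers, 0 in both leaf libraries, 2.34 and 0.0137 in the root-labelled libraries, 5.57 in milk grains and 1.56 in mature seeds. P_XLOC_012928 on chromosome 12 was at 508 and 278 FPKM in buds and flowers, and at 3.98 in milk grains against 1.19 to 2.38 in the other 5 libraries. These loci therefore break the general order of the grain libraries.

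At the 20 loci with pre-flowering roots highest among the others, levels there were low. The highest were P_XLOC_030736 on chromosome 6, at 2.72 FPKM in that library against 472 and 399 in buds and flowers, and P_XLOC_018658 on chromosome 3 (12514990 to 12515564, plus strand), at 2.35 against 181 and 359. Of the 2 loci with pre-flowering leaves highest, the higher was M_XLOC_007151 on chromosome 10 (19198745 to 19206998, minus strand), at 23.9 FPKM, with 476 and 1112 FPKM in buds and flowers, 14.4 in post-flowering leaves, 7.07 and 19.9 in the root-labelled libraries, 9.02 in milk grains and 17.9 in mature seeds. Like M_XLOC_024036 it had a long span, 8254 bp, and a value above 0 in every library.

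Post-flowering leaves stood above pre-flowering leaves at 125 of 147 members under 5 FPKM in both and above 0 in one (85.0%), with medians of 0.281 and 0.0516 FPKM. The share was 47.5% among all loci of at least 300 bp at such levels and 42.6% among non-members at 20 FPKM or more in both inflorescence libraries. In the libraries labelled roots the order was the other way, with the later library higher at 55 of 170 members (32.4%), against 50.2% of all loci at such levels and 31.9% of the non-members. The leaf share thus lay well above both backgrounds, while the root share lay close to that of other loci active in the inflorescence. Between organs at the earlier point, roots stood above leaves at 142 of 156 such members (91.0%), against 52.6% of all loci and 71.7% of the non-members. At the later point leaves stood above the root-labelled library at 89 of 166 (53.6%), against 45.4% and 55.6%. The later leaf library was 2.82 and the earlier 2.02 times as deep as mature seeds, and the part of depth in these small differences was not tested. The 0.138% median of the flower value in post-flowering leaves, with quartiles of 0.0457% and 0.229%, was below that in mature seeds.

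Members lay close together in places. Of the 191, 36 (18.8%) had another member within 50 kb, forming 14 runs, 9 of 2 members and 5 of 3 to 5. Among the loci of the companion set 16.5% of those higher in buds and 7.81% of those higher in flowers had another of their own kind within 50 kb. The companion sets were smaller, at 133 and 64 loci, and such a share depends on the number of loci. The 9034 loci, being far denser, had a neighbour of their kind at that distance in 93.9% of cases. That share is no yardstick for 191 loci. Neighbouring members shared a strand in 20 of 22 pairs (90.9%), pairs that came from the 14 runs. Among companion loci higher in buds 8 of 12 neighbouring pairs did. The share was 50.5% of neighbouring pairs among the denser 9034. In 11 of the 22 pairs no locus started between the members.

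The longest run lay on the minus strand of chromosome 6, with 5 members between 27306726 and 27378472. In order of position they were M_XLOC_032073 (379.8 FPKM in buds and 116 in flowers), M_XLOC_032074 (850 and 410.4), M_XLOC_032077 (311 and 120.2), M_XLOC_032078 (686 and 281) and M_XLOC_032083 (952 and 349). All 5 were at least 2-fold lower in flowers. Beside them M_XLOC_032072, just outside the 4-fold limit, was lower in flowers as well. So was M_XLOC_032076, inside the span of M_XLOC_032074, at 517 FPKM in buds and 56.1 in flowers. The remaining loci inside the run went both ways. M_XLOC_032079 (7.56 FPKM in buds and 21.09 in flowers) and M_XLOC_032080 (20.16 and 54.981) were higher in flowers. M_XLOC_032075 and M_XLOC_032082 were lower. In mature seeds the 5 members stood between 1.51 and 7.36 FPKM.

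On the plus strand of chromosome 2, 4 members lay between 1416610 and 1430872. P_XLOC_013339 was at 183 and 51.8 FPKM in buds and flowers, P_XLOC_013340 at 276 and 70.2, P_XLOC_013342 at 642 and 456, and P_XLOC_013343 at 209 and 104. Between them P_XLOC_013341, at 153 and 31.7 FPKM, missed the 4-fold and the 16-fold limit, with 3.99 in pre-flowering roots. All 5 loci were at 0.0563 FPKM or less in milk grains and between 1.07 and 7.93 in mature seeds.

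Chromosome 4 held a run of 3 on each strand. On the minus strand (14534793 to 14559618) M_XLOC_023606 was at 261 FPKM in buds and 83.8 in flowers, M_XLOC_023607 at 939 and 337, and M_XLOC_023608 at 1275 and 355. Their spans were 679, 692 and 699 bp. On the plus strand (15269072 to 15293235) P_XLOC_022950 was at 365 and 154 FPKM, P_XLOC_022951 at 1036 and 463, and P_XLOC_022952 at 397 and 115. All 6 were lower in flowers by at least 2-fold.

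The run on the plus strand of chromosome 9 (18248971 to 18273227) was mixed. P_XLOC_040054 was at 718 FPKM in buds and 236 in flowers, whereas P_XLOC_040051 was at 26.6 and 52.3 and P_XLOC_040055 at 50.8 and 58.6. Among pairs, M_XLOC_022832, described above, had M_XLOC_022836 (6095782 to 6096936) 40850 bp away on the same strand, at 2028 FPKM in buds and 969 in flowers. The nearest pair with no locus between was M_XLOC_010295 and M_XLOC_010296 on chromosome 11, 540 bp apart, at 559 and 286 FPKM in buds and 345 and 128 in flowers. Neighbouring copies can share reads and one transcript can be listed as several loci, so values of such neighbours are uncertain.

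Members in runs were more often lower in flowers than the rest, a split made after the values had been seen. Of the 36 in runs, 28 were lower in flowers, 21 of them at least 2-fold, and the median log2 ratio was -1.11. These loci are neighbours and not separate units. By run, all members were lower in flowers in 8 of 14 runs and higher in 1, and the rest were mixed. The 5 runs of 3 or more held 16 of the 28. Of the other 155, 74 were lower in flowers, 29 at least 2-fold, and the median was 0.03. Members in runs had medians of 336 FPKM in buds and 1088.5 bp, the others 95.9 FPKM and 1772 bp.

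**Figure D5:**
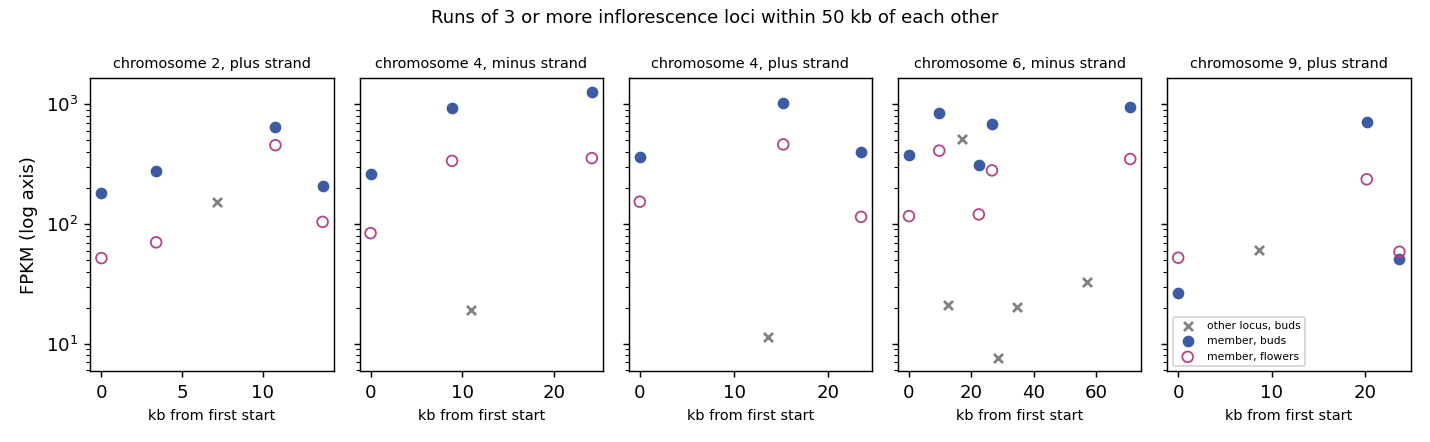
FPKM (log axis) in flower buds (filled) and flowers (open) of members of the 5 runs of at least 3, by distance in kb from the start of the first member, with other loci inside the run as crosses (buds only). Bud values stand above flower values in every member of the 4 runs on chromosomes 2, 4 and 6, and in 1 of 3 members on chromosome 9.

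Most flanking loci, members left out, were not enriched in inflorescences, but a larger share was than among all non-members. The nearest other locus of at least 300 bp on each side gave 353 flanking loci, of which 27 (7.65%) were enriched in inflorescences, here meaning that the lower inflorescence value was at least 1 FPKM and 4-fold above all other libraries. Among all non-members of at least 300 bp 1.29% were. The share of flanking loci at 20 FPKM or more in both inflorescence libraries, 25.2%, was close to the 23.9% of all non-members. Examples of enriched neighbours were M_XLOC_025601, at 950.3 FPKM in buds and 208 in flowers, and P_XLOC_012929, at 516 and 261. The latter starts at 27493625 on chromosome 12, just past the end of the member P_XLOC_012928 at 27493550 on the same strand. Neighbours this close can be parts of the same transcript, which was not tested, so not every enriched neighbour need be separate.

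Chromosomes 2 and 4 held the most members, 27 and 24, and chromosome 9 the fewest, 7. As a share of loci of at least 300 bp they ran from 0.319% on chromosome 9 to 0.710% on chromosome 4. The plus strand held 98 and the minus strand 93. The longest, P_XLOC_007647 on chromosome 11 (1180277 to 1197640, plus strand), measured 41.4 and 62.4 FPKM in buds and flowers, 1.297 in pre-flowering roots and 0 elsewhere. Members spanned 370 to 17364 bp with a median of 1547 bp, against 2517 bp over all loci of at least 300 bp and 3812 bp over the 9034. Spans of 5000 bp or more made up 4.71% of members and 32.5% of the 9034.

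Overlap with a locus on the opposite strand was found for 24 of the 191 members (12.6%), against 24.1% of all loci of at least 300 bp. Among the 9034 it was found for 1810. Members were shorter than those loci, and the part of span length in this difference was not tested. Of the 26 opposite-strand partners, 17 stayed under 5 FPKM in both inflorescence libraries, 6 were at 20 FPKM or more in both, and 3 had their highest value in an inflorescence library, flower buds in each case. Among all non-members of at least 300 bp 23.9% were at 20 FPKM or more in both, a share close to that of the partners, of which 7 were shorter than 300 bp.

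Partners that were high had patterns of their own. M_XLOC_028996 on chromosome 5, at 74.2 and 40.5 FPKM in buds and flowers and 0.786 in mature seeds, overlapped P_XLOC_028241 by 936 bp. That partner was at 28.1 and 38.9 FPKM in buds and flowers, 86.4 and 93.9 in leaves, 365 and 95.1 in the root-labelled libraries, 72.4 in milk grains and 1687 in mature seeds. M_XLOC_018575 on chromosome 3 held within its span P_XLOC_017765 (249 bp), which was at 52.0 and 36.4 FPKM in buds and flowers and at 366 in milk grains. The 3 members of the run on chromosome 9 lay against M_XLOC_040622, a locus spanning 292242 bp that stood at 365 FPKM or more in every library, a span too wide to place its signal opposite the members.

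A partner that, like its member, was highest in buds and next in flowers was M_XLOC_038565 (219 bp), inside P_XLOC_038030 on chromosome 8. The member stood at 936 and 548 FPKM in buds and flowers and the partner at 171 and 96.1, or 18.3% and 17.5% of the member. Outside the inflorescence they differed. The member was highest in mature seeds, at 5.43 FPKM, where the partner was listed at 0, and the partner in pre-flowering roots, at 3.26. P_XLOC_026104 (156 bp) inside M_XLOC_026886 on chromosome 5 was at 84.1 and 46.9 FPKM against 1461 and 444. That was 5.76% and 10.6% of the member, and this partner was listed at 0 in all other libraries. Values of loci this short are scaled up by their length, so the percentages compare FPKM, not reads.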

How the data were processed

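Strand-specific single-end RNA-seq of 8 rice samples, 1 library per group, was used as deposited. The deposited values are FPKM per locus, a unit taken from the name the authors gave the table, with positions on MSU Release 7 per the file headers. The submitters' processing notes list TopHat, Cufflinks and Cuffdiff, with no version or setting. The sources used here do not say how reads that match several copies were divided, so values of near-identical loci, neighbouring or not, are uncertain.

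The rule for the 191 loci, fold differences and log2 ratios used FPKM + 1, which understates changes of low values, while percentages of another library's or locus's value used plain FPKM. Python 3.11.15, pandas 2.3.3, numpy 2.4.6 and scipy 1.17.1 were used, with matplotlib 3.10.9 for figures. The selection code was run on simulated loci built to meet the fold limits, which checks the code and not the selection in these data. With 1 library per group no test was made, no p is given and no interval could be computed, since read counts are unknown. The library labelled roots after flowering resembled leaves and was kept under its label.

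The members and lists were chosen with earlier results of these data known. Loci were named by rank: the 10 highest by the lower inflorescence value, the 4 highest and 4 lowest ratios, the 3 nearest to 1, the nearest on either side of each limit, the longest and shortest, neighbours within 50 kb, and opposite-strand partners by level. Further members of runs, enriched neighbours, loci at 0 and loci led by a given library were named after their values were seen. Alternatives changed the pseudocount, the limits, the scaling, the libraries used, the distance and the overlap. Of 39387 genes in the reference table none carried a member's identifier, and no sequence was used.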

Additional observations from a re-analysis of the deposited data

Results flagged for a closer look

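The later minus the earlier leaf library and the later minus the earlier root-labelled library had opposite signs over the 191 loci. In leaves the median difference was 0.0989 FPKM, with 128 loci higher later, 24 lower and 39 equal. In the root-labelled pair it was -0.0691 FPKM, with 60 higher, 115 lower and 16 equal. At 84 loci the later library was higher in leaves and lower in the root-labelled pair, and at 10 the reverse. At the low levels compared in Results (under 5 FPKM in both libraries), the later root-labelled library was higher at 32.4% of members. That share was 31.9% among non-members at 20 FPKM or more in both inflorescence libraries and 50.2% among all loci of at least 300 bp. For the later leaf library the shares were 85.0%, 42.6% and 47.5%. The root-labelled order was thus close to that of other inflorescence loci, while the leaf order was not. Each library is a single sample, and the difference between the pairs was not tested. The later root-labelled library had a relative depth of 7.68 and resembled leaves, and the part of either fact in this pattern was not tested.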

How the results depend on the processing

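With a pseudocount of 5 the rule gave 79 loci, 11 at least 2-fold higher and 25 lower in flowers, a median log2 ratio of -0.58, mature seeds highest at 67 and above milk grains at 74. With a 32-fold organ limit these were 96, 13, 29, -0.49, 83 and 91. With a 2-fold limit between buds and flowers they were 108 loci, a median log2 ratio of 0.023, a reversal of sign, a median absolute log2 ratio of 0.52, and mature seeds highest at 72 and above milk grains at 85. Without the grain libraries the rule gave 314 loci, 56 at least 2-fold higher, a median of -0.077 and a median absolute ratio of 0.77. The median log2 ratio was -0.11 with a pseudocount of 0.1, -0.063 with an 8-fold organ limit and -0.37 with a minimum of 50 FPKM, where the absolute median was 1.01. Scaling to equal sums multiplied flowers by 1.61, buds by 1.64, milk grains by 1.06 and mature seeds by 0.656, and gave 260 loci, 52 at least 2-fold higher, with mature seeds above milk grains at 201, so percentages of the flower value depend on it. Within 200 kb 35.6% of members had another member. Enriched flanking loci made up 11.6% at 2-fold (3.25% of all non-members) and 3.68% at 8-fold (0.453%). An opposite-strand locus covered at least 50% of the span for 3.14% of members, and had 1 FPKM or more in an inflorescence library for 7.85%. The cause of these shifts was not tested beyond the fewer or further loci each limit admits. The sign of the median log2 ratio is thus not stable. In every setting run that kept the 4-fold limit more loci were 2-fold lower than 2-fold higher in flowers. That order is not particular to the members, since 447 of the 9034 loci were 2-fold lower and 259 higher. The median absolute ratio, the seed counts and the joint use of all limits for them were chosen after seeing the data. No paired analysis was possible because each group had 1 library. Levels under about 1 FPKM rest on few reads, fewest in mature seeds.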
